A study of Mus musculus with 11 samples.

Results

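Histone H3 lysine 4 methylation is written by a small family of enzymes that work in related complexes. The 10 genes described here are the 6 methyltransferases Kmt2a, Kmt2b, Kmt2c, Kmt2d, Setd1a and Setd1b and the 4 partner subunits Men1, Cxxc1, Wdr5 and Ash2l. They were chosen by name as 10 of the 48709 gene identifiers counted, and all 10 passed the filter on low counts. RNA was measured in the dissected CA1 field of the hippocampus of mice aged 3 months. There were 6 libraries from CamkdeltaC transgenic animals and 5 from littermate controls, with both sexes used and the sex of each library not labelled. CamkdeltaC is a splice form of a calcium/calmodulin-dependent protein kinase, and the transgene is known to be driven by a heart promoter, so the line models a heart disorder rather than a change made in neurons. The study's title names heart failure, memory impairment and epigenetic gene expression, which is the question these genes bear on.

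Each methyltransferase carries a catalytic SET domain that is nearly inactive alone and is switched on by a shared core containing WDR5 and ASH2L. SETD1A and SETD1B work with CXXC1, which binds unmethylated CpG sites, and place much of the trimethylation at active promoters. KMT2A and KMT2B work with menin, the product of Men1, and are needed for hippocampal memory in mice. KMT2C and KMT2D place monomethylation at enhancers. Mutations in several of these genes cause intellectual disability in people, among them Kabuki syndrome for KMT2D.

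The paralogous enzymes are closest at the end of the protein that holds the SET and post-SET domains, and the last 120 coding bases of the Kmt2 pairs are shown because they align each pair at the same place and differ in base composition. They were read from the GENCODE annotation on build mm10, 5′ to 3′ on the coding strand with the stop codon included, and capitals mark bases that are identical within a pair. Kmt2c (chr5:25273666-25275654, minus strand, exons 58 and 59 of 59) and Kmt2d (chr15:98834500-98834742, minus strand, exons 54 and 55 of 55) shared 96 of 120 bases, and each interval holds an intron that is not printed.
Kmt2c: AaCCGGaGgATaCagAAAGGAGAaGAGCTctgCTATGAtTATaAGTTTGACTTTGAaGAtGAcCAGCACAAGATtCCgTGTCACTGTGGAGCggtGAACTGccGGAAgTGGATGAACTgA
Kmt2d: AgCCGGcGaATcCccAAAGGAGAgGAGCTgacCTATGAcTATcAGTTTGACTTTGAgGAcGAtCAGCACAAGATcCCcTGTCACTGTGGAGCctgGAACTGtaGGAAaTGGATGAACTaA
Kmt2a (chr9:44807902-44808021, minus strand, exon 36 of 36) and Kmt2b (chr7:30569161-30569280, minus strand, exon 37 of 37) shared 93 of 120 bases.
Kmt2a: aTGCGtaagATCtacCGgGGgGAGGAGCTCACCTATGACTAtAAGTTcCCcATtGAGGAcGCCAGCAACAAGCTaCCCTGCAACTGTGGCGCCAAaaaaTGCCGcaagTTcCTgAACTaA
Kmt2b: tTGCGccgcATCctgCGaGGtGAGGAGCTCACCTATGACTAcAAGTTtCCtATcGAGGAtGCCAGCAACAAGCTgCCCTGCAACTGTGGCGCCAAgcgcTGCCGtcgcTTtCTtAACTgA
Of the 24 bases that differ between Kmt2c and Kmt2d, 14 are at the last position of a codon, and at 11 sites Kmt2c has A or T where Kmt2d has G or C, against 7 the other way. Of the 27 bases that differ between Kmt2a and Kmt2b, 17 are at the last position of a codon, with 14 sites and 8 sites in the same order. The third pair, Setd1a and Setd1b, is not printed. It shares 90 of 120 bases, and its differences are balanced, with 11 sites each way. Over the whole coding sequence, G or C makes up 47.3% of coding bases and 39.8% of last codon positions in Kmt2c, against 59.4% and 59.9% in Kmt2d. In Kmt2a these shares are 52.4% and 53.2%, and in Kmt2b 59.3% and 56.5%. In Setd1a they are 56.7% and 54.7%, and in Setd1b 61.8% and 69.5%.

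Across all genes, GC content and group moved together. CPM below stands for a gene's counts divided by its library's TMM-scaled total and put on a common scale. The slope of log2 CPM on GC content was -0.06 to 0.27 per 10 percentage points in transgenic libraries and -0.22 to -0.06 in controls, taken against each gene's mean. Total counts were 24403918 to 34153726 in transgenic libraries and 14263784 to 36898689 in controls. Of the 17293 genes tested, 1282 were called higher (7.41%) and 1812 lower (10.5%) in transgenic libraries at a Benjamini-Hochberg adjusted p under 0.05 in edgeR's quasi-likelihood test, so 17.9% were called in either direction. After removal of each library's GC trend 342 were called (1.98%). Nothing in the labels says that each library is a separate animal, so the p-values may measure only the spread between these samples. The 5 CA1 pyramidal markers were all detected and none was called, with a summed level of 1052 to 1360 CPM in transgenic and 902.5 to 1137 CPM in control libraries. Their log2 fold changes ran from 0.14 to 0.42, with a median of 0.28, or 0.07 with the GC trend removed.

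Of the 10 members, Men1 and Cxxc1 were higher and Kmt2c was lower in transgenic libraries, and the other 7 did not pass the test. Thus 2 of 10 were called higher and 1 of 10 lower, beside the 7.41% and 10.5% of all genes. Men1 and Cxxc1 lie at 55% to 60% GC, where 19.0% of genes were higher. Kmt2c lies at 45% to 50% GC, where 5.82% of genes were lower. The median log2 fold change was 0.05 over the members and 0.01 over all genes tested. With the GC trend removed no member was called, and the medians were -0.11 and 0.00. At that setting all 6 methyltransferases had a negative value, from -0.24 to -0.11, and all 4 partner subunits a positive one, from 0.03 to 0.11. With length removed as well these signs were the same, with the methyltransferases at -0.14 to -0.03 and the partners at 0.02 to 0.14. The members were chosen with results known and none of these values passed, so no test was made over either group. The groups did not overlap in CPM for Men1 and Kmt2c, 2 of 10, beside 7.77% of all genes.

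**Figure D1:**
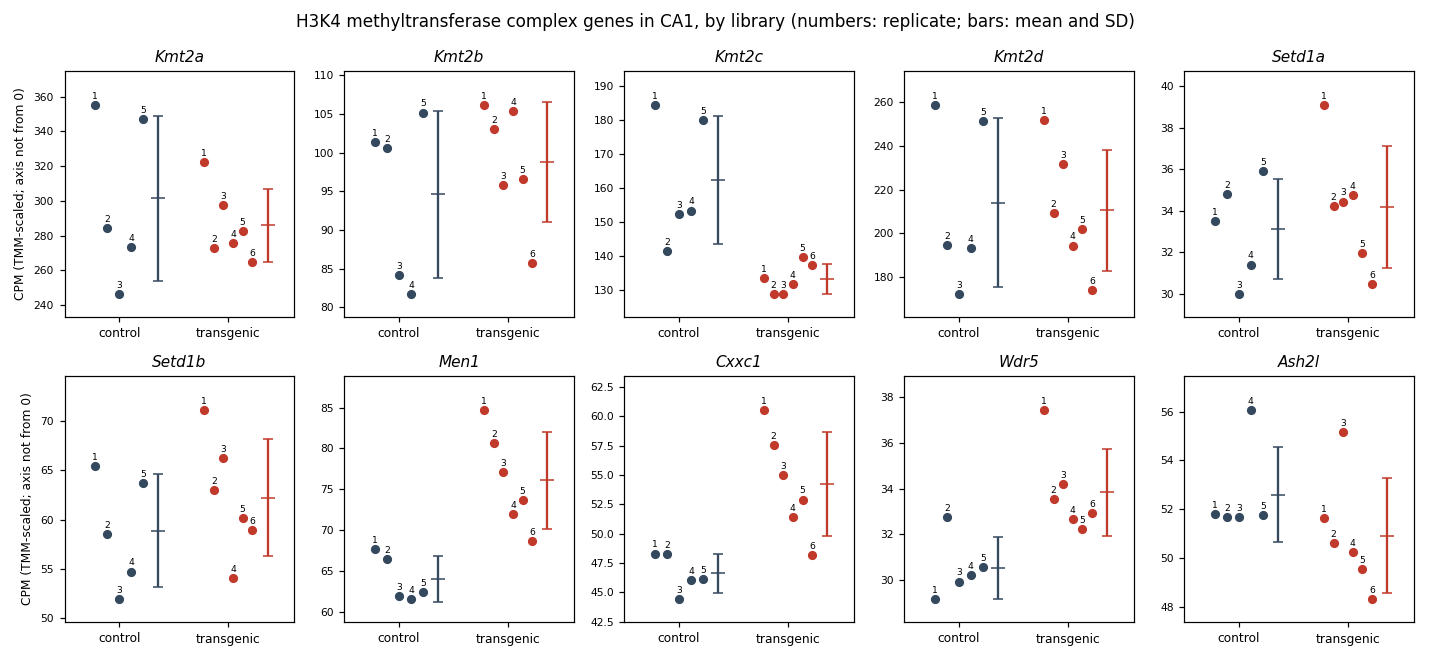
CPM of each member (the axes do not start at 0) in every library, transgenic (6) and control (5), with points numbered by replicate and bars for the mean and SD. Men1 (68.6 to 84.7 against 61.6 to 67.7) and Kmt2c (129 to 140 against 141 to 184) are the members without overlap between groups.

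Kmt2c encodes an enhancer monomethyltransferase (ENSMUSG00000038056, chr5:25271798-25498783, minus strand). It measured 134, 129, 129, 132, 140 and 137 CPM in transgenic libraries 1 to 6 and 184, 141, 152, 153 and 180 CPM in controls 1 to 5. All transgenic libraries were below all controls, and the controls spread more widely, with controls 1 and 5 highest. The mean was 133 ± 4.43 CPM in transgenic (SD, n = 6) and 162 ± 18.8 CPM in control libraries (SD, n = 5). The log2 fold change was -0.28 (SE 0.07, edgeR adjusted p = 0.0175). Kmt2c was called in all 11 fits that left out 1 library, with values from -0.33 to -0.23. The edgeR adjusted p in these fits ran from 0.00852 to 0.0498, so the call came close to the threshold. With the GC trend removed the value was -0.24 (SE 0.06, edgeR adjusted p = 0.0710), and with length removed too it was -0.14 (edgeR adjusted p = 0.151). Controls 5 and 1 also had the highest slopes of log2 CPM on gene length once GC was removed, 0.0198 and 0.0145 per doubling against at most 0.00462 in the others. The part of this length slope in the control values was not tested beyond the setting above.

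Kmt2d, its closest paralog and also an enhancer enzyme (ENSMUSG00000048154, chr15:98831669-98871204, minus strand), measured 252, 209, 232, 194, 202 and 174 CPM in transgenic libraries and 259, 195, 172, 193 and 251 CPM in controls. The groups overlapped over nearly their whole range. Its log2 fold change was -0.02 (SE 0.12, edgeR adjusted p = 0.907). Within a library, the log2 ratio of Kmt2c to Kmt2d per length was -0.94, -0.73, -0.87, -0.59, -0.56 and -0.37 in transgenic libraries and -0.51, -0.49, -0.20, -0.36 and -0.51 in controls. The mean ratio was lower in transgenic libraries by 0.26, with overlap between groups. A two-sided exact permutation of the mean gave p = 0.0433, and 0.130 adjusted over the 3 pairs compared, so the difference did not pass. The smallest p this test can give is 0.00216. With the GC trend removed the difference was -0.04 (exact permutation, adjusted p = 0.892).

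**Figure D2:**
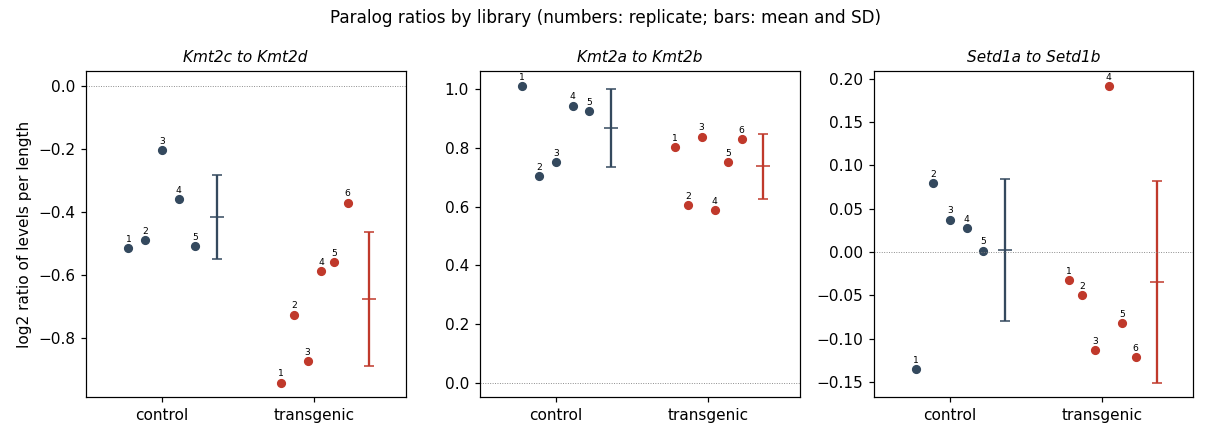
Log2 ratio of each paralog pair per exon length in every library, with group means and SD. The Kmt2c to Kmt2d ratio ranges from -0.94 to -0.37 in transgenic and -0.51 to -0.20 in control libraries.

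Kmt2a encodes the methyltransferase known as MLL1 (ENSMUSG00000002028, chr9:44803355-44881296, minus strand), whose loss in forebrain neurons impairs memory in mice. It measured 322, 273, 298, 276, 283 and 265 CPM in transgenic libraries and 355, 285, 246, 273 and 347 CPM in controls. Controls 1 and 5 were again highest, and the groups overlapped. The log2 fold change was -0.08 (SE 0.09, edgeR adjusted p = 0.595). Kmt2b, which encodes the paralog of that enzyme (ENSMUSG00000006307, chr7:30568858-30588726, minus strand), measured 106, 103, 95.8, 105, 96.6 and 85.7 CPM in transgenic libraries and 101, 101, 84.2, 81.8 and 105 CPM in controls. Its log2 fold change was 0.06 (SE 0.08, edgeR adjusted p = 0.596), and it was -0.12 with the GC trend removed. The Kmt2a to Kmt2b log2 ratio was 0.74 ± 0.11 in transgenic (SD, n = 6) and 0.87 ± 0.13 in control libraries (SD, n = 5), a difference of -0.13 (two-sided exact permutation p = 0.108, adjusted 0.162).

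Setd1a and Setd1b encode the promoter enzymes that carry CXXC1 in their complex. Setd1a (ENSMUSG00000042308, chr7:127776670-127800122, plus strand) measured 39.1, 34.2, 34.4, 34.8, 31.9 and 30.5 CPM in transgenic libraries and 33.5, 34.8, 29.99, 31.4 and 35.9 CPM in controls. Setd1b (ENSMUSG00000038384, chr5:123142193-123168629, plus strand) measured 71.1, 63.0, 66.2, 54.1, 60.1 and 58.9 CPM in transgenic libraries and 65.4, 58.6, 52.0, 54.7 and 63.7 CPM in controls. The groups overlapped for both genes. Setd1a had a log2 fold change of 0.05 (SE 0.07, edgeR adjusted p = 0.676). Setd1b had one of 0.08 (SE 0.08, edgeR adjusted p = 0.486). Both had the opposite sign with the GC trend removed, at -0.12 and -0.11. Of the 6795 exonic bases of Setd1a, 3523 (51.9%) are shared on the same strand with the readthrough gene Gm49388, so reads there could be assigned to either or to neither and its level per length is uncertain. The kit does not mark strand, and Kmt2a and Kmt2c share 378 (2.27%) and 274 (1.35%) of their exonic bases with genes on the opposite strand. The Setd1a to Setd1b log2 ratio was -0.03 ± 0.12 and 0.00 ± 0.08 in the groups (two-sided exact permutation p = 0.576).

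Men1 encodes menin, the scaffold that joins KMT2A and KMT2B to chromatin partners (ENSMUSG00000024947, chr19:6334979-6340891, plus strand). It measured 84.7, 80.7, 77.1, 72.0, 73.6 and 68.6 CPM in transgenic libraries and 67.7, 66.5, 61.9, 61.6 and 62.5 CPM in controls. Every transgenic library was above every control, the closest being transgenic 6 at 68.6 and control 1 at 67.7. The mean was 76.1 ± 5.91 CPM in transgenic (SD, n = 6) and 64.0 ± 2.84 CPM in control libraries (SD, n = 5). The log2 fold change was 0.25 (SE 0.06, edgeR adjusted p = 0.0169). Men1 was called in all 11 fits that left out 1 library, with edgeR adjusted p from 0.004 to 0.0482. With the GC trend removed it was 0.08 (SE 0.03, edgeR adjusted p = 0.211).

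Cxxc1 encodes the CpG-binding subunit of the SETD1 complexes (ENSMUSG00000024560, chr18:74216124-74221496, plus strand). It measured 60.5, 57.5, 55.0, 51.4, 52.9 and 48.2 CPM in transgenic libraries and 48.3, 48.3, 44.4, 46.1 and 46.1 CPM in controls. Transgenic 6 lay just below the highest controls, and the other transgenic libraries lay above all controls. The means were 54.3 ± 4.42 CPM (SD, n = 6) and 46.6 ± 1.65 CPM (SD, n = 5). The log2 fold change was 0.22 (SE 0.06, edgeR adjusted p = 0.0269). The call was lost without transgenic 1, 2 or 3 or control 3, 4 or 5, with edgeR adjusted p from 0.0539 to 0.0643. With the GC trend removed the value was 0.03 (SE 0.03, edgeR adjusted p = 0.658).

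WDR5 and ASH2L belong to the core that every one of the 6 enzymes uses. Wdr5 (ENSMUSG00000026917, chr2:27515157-27536535, plus strand) measured 37.4, 33.5, 34.2, 32.7, 32.2 and 32.9 CPM in transgenic libraries and 29.2, 32.8, 29.9, 30.2 and 30.6 CPM in controls. The groups overlapped only through control 2. Its log2 fold change was 0.15 (SE 0.05, edgeR adjusted p = 0.0706), and without control 2 it was 0.18 (edgeR adjusted p = 0.0347). That was the 1 call in 11 fits that left out 1 library, with edgeR adjusted p up to 0.148. With the GC trend removed Wdr5 was at 0.08 (SE 0.04, edgeR adjusted p = 0.360). Ash2l (ENSMUSG00000031575, chr8:25815996-25847694, minus strand) measured 51.6, 50.6, 55.1, 50.2, 49.6 and 48.3 CPM in transgenic libraries and 51.8, 51.7, 51.7, 56.1 and 51.7 CPM in controls. Its log2 fold change was -0.05 (SE 0.05, edgeR adjusted p = 0.504), and 0.11 with the GC trend removed.

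**Figure D3:**
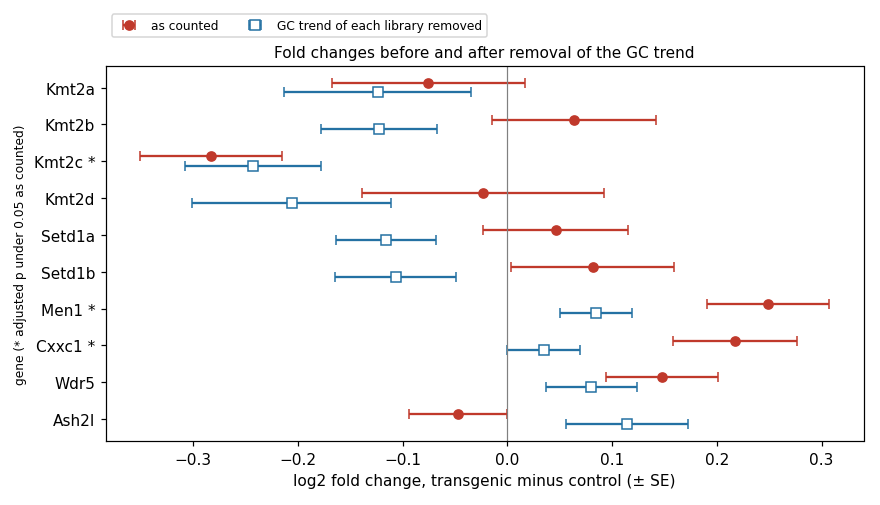
Log2 fold change of each member, transgenic minus control, with SE, before and after removal of each library's GC trend. Kmt2c goes from -0.28 to -0.24, Men1 from 0.25 to 0.08 and Cxxc1 from 0.22 to 0.03.

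Genes of the same base composition give the scale for these values. Of the 3028 genes tested with 55% to 60% GC, the median log2 fold change was 0.17 and the middle quartiles ran from 0.09 to 0.24. Men1 at 0.25 was just above that range and Cxxc1 at 0.22 inside it. Kmt2b, Kmt2d, Setd1a and Setd1b, with values from -0.02 to 0.08, were below it. Kmt2c at -0.28 was below the quartiles of the 4571 genes with 45% to 50% GC, which ran from -0.15 to 0.06. Kmt2a at -0.08 was below the lower quartile of the 4412 genes with 50% to 55% GC, which was -0.01, and Wdr5 at 0.15 was inside that range. Ash2l at -0.05 was above the upper quartile of -0.09 in the 3315 genes with 40% to 45% GC. All 6 enzymes were therefore below the lower quartile of their own bin, as a description with no test. These bins do not match for length. The enzymes had 6795 to 20291 exonic bases, Ash2l 8969, and Men1, Cxxc1 and Wdr5 3596 to 3925. The slope of log2 CPM on gene length was -0.0332 to -0.00121 per doubling in transgenic and 0.00468 to 0.0337 in control libraries. Once GC was removed it was -0.00888 to -0.00161 and -0.00195 to 0.0198. Its part in the enzymes' values was not tested beyond the setting with length removed.

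**Figure D4:**
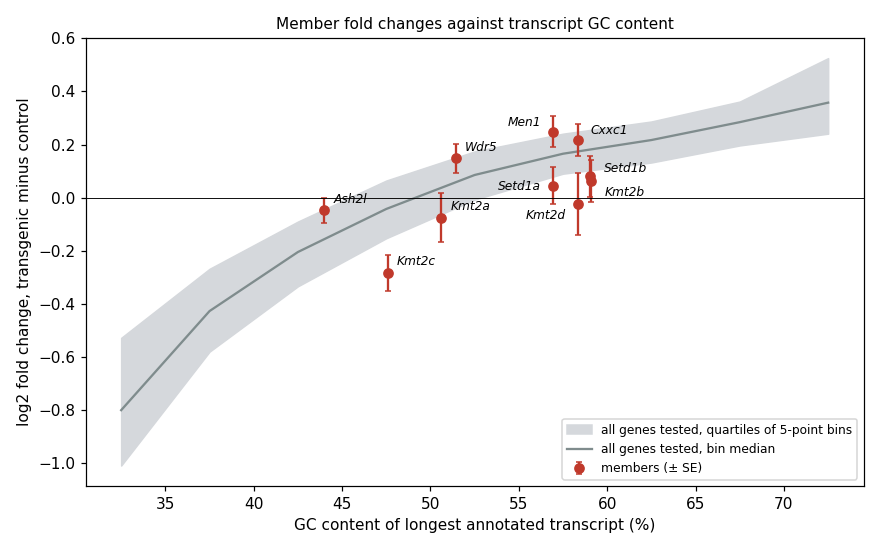
Log2 fold change of the 10 members with SE against the GC content of the longest transcript, over the bin median (line) and quartiles (band) of all genes tested in bins of 5 percentage points. The 6 methyltransferases sit under the band, with Men1 just above it and Ash2l at its upper edge.

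Per length, the members spanned less than an order of magnitude. The level used here is CPM divided by exon length in kilobases (RPKM). Mean RPKM over all 11 libraries was 18.4 ± 2.03 for Men1, 17.6 ± 2.07 for Kmt2a, 12.9 ± 1.32 for Cxxc1, 10.6 ± 1.57 for Kmt2d and 10.1 ± 0.943 for Kmt2b (SD, n = 11). It was 8.99 ± 0.652 for Wdr5, 7.22 ± 0.961 for Kmt2c, 5.76 ± 0.250 for Ash2l, 5.03 ± 0.483 for Setd1b and 4.96 ± 0.389 for Setd1a. This order pools groups, and its first rank differs between them: Men1 and Kmt2a were at 19.85 and 17.2 RPKM in transgenic libraries and 16.7 and 18.1 RPKM in controls, with Men1 above Kmt2a in 8 of 11 libraries. Neighbours in this order had overlapping ranges except Kmt2c over Ash2l. Within libraries Kmt2a was above Cxxc1 in 11 of 11, while Kmt2d was above Kmt2b and Setd1b above Setd1a in 6 of 11.

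Other subunits of the same complexes were counted from a list of 12, of which 11 were tested, 0 were called higher and 2 lower in edgeR, beside 7.41% and 10.5% of all genes. Both called genes lie at 40% to 45% GC, where 28.4% of genes were lower. Psip1, which encodes a menin partner that binds chromatin, was lower by a log2 fold change of -0.39 (SE 0.09, edgeR adjusted p = 0.0166). It measured 118, 117, 131, 130, 155 and 166 CPM in transgenic libraries and 172, 165, 193, 195 and 168 CPM in controls, with transgenic 6 inside the control range. Psip1 was called in 11 of 11 fits that left out 1 library, with edgeR adjusted p up to 0.0484. It was at -0.18 with the GC trend removed (edgeR adjusted p = 0.0859). Kdm6a, an X-linked demethylase of the KMT2C and KMT2D complexes, had a log2 fold change of -0.40 (SE 0.12, edgeR adjusted p = 0.0398). It measured 34.9, 35.99, 32.4, 28.7, 29.0 and 29.8 CPM in transgenic libraries and 45.0, 32.1, 49.3, 49.8 and 32.3 CPM in controls. Among controls the 3 libraries with Xist at 1020 to 1111 CPM were the high ones, and a fit that included Xist expression gave -0.32 (edgeR adjusted p = 0.00682). Transgenic libraries 1 to 3 had Xist at 591 to 632 CPM and were also the high ones of their group. Kdm6a was at 32.4 to 35.99 CPM in them and at 28.7 to 29.8 CPM in transgenic 4 to 6. All remaining libraries had Xist at most at 1.49 CPM. Low Xist does not mark a male throughout: transgenic 5 had Xist at 0.731 CPM with the Y-linked Ddx3y at 0 and Kdm5d at 0.0996 CPM, whereas the other low-Xist libraries had Ddx3y at 43.0 to 75.6 CPM. The Kdm6a call held in 3 of 11 fits that left out 1 library, and was lost with the GC trend removed (-0.16, edgeR adjusted p = 0.572). It was also lost with replicate number fitted as a block (-0.36, edgeR adjusted p = 0.0607), although the labels do not say that these numbers pair libraries. Dpy30, a core subunit, had a log2 fold change of 0.13 (edgeR adjusted p = 0.241), and was called with the GC trend removed (0.36, edgeR adjusted p = 0.0477) but not with length removed as well (edgeR adjusted p = 0.0603).

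Among other enzymes and readers of the mark, 4 genes were called in lists of 6, 5 and 15 tested. Over the 3 lists pooled this share is below the 17.9% of all genes called in either direction. By list the calls were 1 higher and 1 lower of 6, 1 lower of 5 and 1 lower of 15, so the shares differ. Of 6 other SET domain genes tested, Smyd2 was higher by 0.22 (SE 0.07, edgeR adjusted p = 0.0377) and Setd7, a lysine 4 monomethyltransferase, was lower by a log2 fold change of -0.16 (SE 0.05, edgeR adjusted p = 0.0457). Of 5 lysine 4 demethylases tested, Kdm5a was lower (-0.25, SE 0.06, edgeR adjusted p = 0.0210) and the others did not pass. Of 15 readers of the mark, Ing3 was lower (-0.32, SE 0.10, edgeR adjusted p = 0.0450). Kdm5a and Ing3 lie at 40% to 45% GC and Setd7 at 45% to 50% GC, where 28.4% and 5.82% of genes were lower. Smyd2 lies at 50% to 55% GC, where 9.09% of genes were higher. None of these 4 was called with the GC trend removed. With 1 library left out, Kdm5a was called in 8 of 11 fits, Smyd2 in 4, Setd7 in 3 and Ing3 in 3.

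Ubiquitination of histone H2B by the pathway of the PAF1 complex precedes lysine 4 methylation. Of its 10 genes, 4 were lower and 0 higher in edgeR, beside 10.5% and 7.41% of all genes. Of genes in the same GC bins, 28.4% were lower at 40% to 45% GC, which holds Ube2a, Ube2b and Wac, and 48.2% at 35% to 40% GC, which holds Cdc73. Cdc73, a PAF1 complex subunit, measured 32.3, 32.6, 36.2, 39.1, 46.9 and 54.7 CPM in transgenic libraries and 62.4, 57.9, 69.1, 77.7 and 70.3 CPM in controls, with no overlap. Its log2 fold change was -0.74 (SE 0.13, edgeR adjusted p = 0.0111), and with the GC trend removed it was -0.25 (SE 0.04, edgeR adjusted p = 0.0314). Ube2b (-0.27, edgeR adjusted p = 0.0331), Ube2a (-0.26, edgeR adjusted p = 0.0484) and Wac (-0.21, edgeR adjusted p = 0.0384) were the other 3, called in 4, 3 and 3 of the 11 fits that left out 1 library. Cdc73 was called in 11 of 11, and of the 4 it alone was called with the GC trend removed. With length removed too, Cdc73 was at -0.16 (edgeR adjusted p = 0.0972).

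Markers of other cells were read beside these results. Microglial markers held 2 of 5 genes called higher, Csf1r (0.25) and C1qa (0.29, edgeR adjusted p = 0.04999), beside 7.41% of all genes. Tmem119 (0.29), Cx3cr1 (0.12) and P2ry12 (-0.24, edgeR adjusted p = 0.100) did not pass. The list had summed levels of 244 to 325 CPM in transgenic and 219 to 269 CPM in control libraries. Of 5 interneuron markers Slc32a1 was higher (0.22), and Sst (0.37), Pvalb (0.20), Gad2 (-0.19) and Gad1 (-0.08) did not pass. Of 5 astrocyte markers Aldh1l1 was higher (0.24), and Gfap (0.35), Slc1a3 (-0.02), Aqp4 (-0.21) and Gja1 (-0.10) did not pass. These stand beside the same 7.41% of all genes. Slc32a1 lies at 60% to 65% GC, where 25.7% of genes were higher, and C1qa at 55% to 60% GC, where 19.0% were. Csf1r and Aldh1l1 lie at 50% to 55% GC, where 9.09% were higher. With the GC trend removed 0 markers of these 3 lists were called. In the main test oligodendrocyte, endothelial, dentate, CA2 and CA3 and choroid plexus markers held 0. Their median log2 fold changes were 0.29, -0.01, -0.18, 0.11 and -0.24 in this order. With the GC trend removed these medians were 0.26, -0.08, -0.26, -0.09 and -0.19. Oligodendrocyte markers summed to 3279 to 5693 CPM in transgenic and 2733 to 4669 CPM in control libraries, and dentate markers to 48.4 to 150.3 and 40.9 to 172 CPM. Their part in the members' values was not tested, and in bulk tissue fewer cells of a type and less RNA per cell cannot be told apart.

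In the authors' deposited table of higher genes Men1 had a log2 fold change of 0.24 with adjusted p = 0.00161 and Cxxc1 one of 0.21 with adjusted p = 0.00761. In the authors' deposited table of lower genes Kmt2c had -0.28 with adjusted p = 0.00345. The authors' deposited tables held none of the other 7 members. They held 1 higher and 3 lower of the 12 other subunits, and 1 and 5 of the 10 H2B ubiquitination and PAF1 genes. For the 7 other SET domain genes these counts were 1 and 1, for the 6 demethylases 0 and 1, and for the 15 readers 1 and 2. The share of all genes in these tables was not counted. These calls come from the same libraries and are not an independent repeat.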

How the data were processed

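Polyadenylated RNA from CA1 was sequenced as 50-base single-end reads from an unstranded kit, per the labels' protocols. Raw count files, 1 per library, were deposited by the authors. Also deposited were 2 tables of called genes, with the authors' log2 fold change and adjusted p-value, and 22 columns of library values in them were not used. FastQC 0.11.5, STAR 2.5.2b, featureCounts, Subread 1.5.1 and build mm10 are listed per the submitters' processing notes, with roles and settings not given in the sources used here.

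Genes were filtered with filterByExpr, scaled with TMM and tested with edgeR 4.0.16 (R 4.3.3) by quasi-likelihood F test, with a call at adjusted p under 0.05 over 17293 genes. Log2 CPM used a prior count of 2, and fold change standard errors came from the F statistic. Lowess offsets (span 0.3) removed GC and length trends. DESeq2 1.42.0, limma 3.58.1 voom and the other alternatives were run on the same counts. Paralog ratios were compared by exact permutation. On simulated counts of 17293 genes for the transgenic against control comparison, 93 of 100 changes of log2 size 1 and 44 of 100 of size 0.5 were recovered, with 9 false calls. The simulated counts had the same spread setting for every gene and no GC or length trend. Their false calls therefore give no rate for the real counts, where such trends are present. The changes of the called members were smaller than the sizes simulated. Named genes were all members and, from each other list, up to 4 called genes with the smallest p. Dpy30 was added after its values were seen, as the 1 gene of its list called with the GC trend removed, and so were the cell markers named singly and the Y-linked genes. The members and lists were chosen with earlier results of these data known. Chi-square over its degrees of freedom was 6.74 to 53.8 between libraries of 1 group, so none was counted as a copy. The lowest member count in a library was 436.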

Additional observations from a re-analysis of the deposited data

Results flagged for a closer look

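Of 26 groups of library values examined, 3 held a library far from the others, and chance flags about 1 in 20 groups. Wdr5 was at 37.4 CPM in transgenic 1, with the next transgenic library at 34.2. Ash2l was at 56.1 CPM in control 4, with the next control at 51.8. The log2 ratio of Setd1a to Setd1b was 0.19 in transgenic 4, with the next transgenic library at -0.03.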

How the results depend on the processing

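Over all genes the number called was 3094. It was 342 with the GC trend removed, 294 with GC and length removed, 746 with GC removed and the replicate block, and 4774 with voom, and 1155 to 4712 with 1 library left out. The 1282 higher calls became 662 without a filter, 2053 with the replicate block, 200 with GC removed, 200 with GC and length removed, 431 with GC removed and the replicate block and 2164 with voom, and 361 to 2132 with 1 library left out. The 1812 lower calls became 142, 94 and 315 under the 3 GC settings, and 794 to 2580 with 1 library left out. The lowest counts were without control 4 and the highest without transgenic 6. Members called higher (2) were 0 under each of the 3 GC settings and 1 to 3 with 1 library left out. Members called lower (1) were 0 with GC removed and with GC and length removed, and 1 with the replicate block added, where Kmt2c was at -0.24 (edgeR adjusted p = 0.0444). Members without overlap (2) were 1 with GC removed and 2 to 3 with 1 library left out. Signs reversed under the GC settings (GC alone, GC and length, GC and replicate block) for Kmt2b (-0.12, -0.086, -0.11), Setd1a (-0.12, -0.10, -0.11), Setd1b (-0.11, -0.051, -0.12) and Ash2l (0.11, 0.14, 0.15). Kmt2d was 0.037 with the replicate block and -0.091 to 0.055 with 1 library left out. The Kmt2a to Kmt2b difference was 0.010 and 0.059 with GC and with GC and length removed. The Kmt2c to Kmt2d difference was -0.32 to -0.21 with 1 library left out. It passed in 1 of these 11 fits, the one without transgenic 6 (exact permutation, adjusted p = 0.0238). In the fits as a whole the adjusted p ran up to 0.271. Wdr5 passed with upper-quartile scaling (edgeR adjusted p = 0.0487), DESeq2 (0.0436), voom (0.0388) and without control 2. The cause was not tested. Same-numbered libraries had correlations of -0.185 to 0.197, so the numbers were not taken as pairs. The replicate block fitted these numbers as a factor all the same. Transgenic 6, whose number no control has, then adds nothing to the group difference. Values under the block, those of Kmt2c and Kdm6a among them, are therefore given as a setting only.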
